A study of Mus musculus with 2 samples.

Results

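T cells made up 67 of the 4926 barcodes kept from the islet preparation of wild type (WT) mice (1.36%, 95% interval 1.06 to 1.72), whereas none of the 4445 barcodes kept from the *Npc1*-/- preparation met the same rule. A barcode was kept with more than 500 genes, fewer than 50000 unique molecular identifiers (UMIs, each of which counts 1 captured transcript), less than 10% of UMIs from mitochondrial genes and no more than 0.1% from haemoglobin genes, and 9371 of the 16215 barcodes of both libraries were kept. A kept barcode was called a T cell when at least 3 of 6 genes (*Cd3d*, *Cd3e*, *Cd3g*, *Trbc2*, *Trac* and *Thy1*) had a UMI, fewer than 3 of 5 B cell genes (*Cd79a*, *Cd79b*, *Ms4a1*, *Ighm* and *Igkc*) had one, and no islet hormone reached 10% of UMIs. These 11 marker genes and the hormone genes chose the cells, so their values are given as a description only.

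The study asked what the loss of *Npc1* changes in islet cells of young mice. Islets were isolated at 2 weeks of age, dispersed with trypsin and sequenced by the droplet-based 10x Genomics 3′ assay, with 1 library per genotype. Each library came from 3 pooled female mice, either *Npc1*-/- mice, which lack the cholesterol exporter of the lysosome in all tissues, or WT littermates, both on a C57BL/6J background. *Npc1* itself had 799 UMIs in the kept WT barcodes (8.45 counts per 1000000 UMIs or CPM, 7.88 to 9.06) and 394 in the *Npc1*-/- barcodes (4.16 CPM, 3.76 to 4.59), and whether the counted 3′ ends lie in the deleted part of the gene is not given in the sources used here. The mice of a pool cannot be told apart in these counts, and genotype and library cannot be told apart either, so no test between genotypes was made and all intervals are 95% intervals for counting error only.

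T cells recognise antigens through a receptor made of an αβ or a γδ chain pair, which has no signalling tail of its own and passes the signal on through the CD3 chains. The coreceptors CD4 and CD8 bind class II and class I histocompatibility molecules and mark the helper and the cytotoxic lineage. Naive T cells circulate between blood and lymphoid organs, memory and innate-like T cells can stay in tissues, and in the pancreas T cells are best known for their part in autoimmune diabetes.

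The genes of the 3 CD3 chains, all of them part of the rule, lie together on chromosome 9. *Cd3d* (ENSMUSG00000032094, chr9:44981786-44987339, + strand) and *Cd3g* (ENSMUSG00000002033, chr9:44969572-44980431, − strand) are transcribed away from each other from starts 1355 bases apart, and *Cd3e* (ENSMUSG00000032093, chr9:44998740-45009627, − strand) follows (GRCm38, GENCODE positions). These genes were detected together in the T cells and were at or near 0 in the other classes called here, which the choice of cells largely fixed. The 250 bases before the RefSeq start of each gene are printed as a description. They run 5′ to 3′ on the strand of the gene (RefSeq, GRCm38.p6: chr9:44981536-44981785, chr9:44980432-44980681 and chr9:45009612-45009861, in the order shown). Capitals mark the E-box letters CACCTG, or CAGGTG on the other strand, and the ETS-type letters CTTCCT, or AGGAAG on the other strand, which do not overlap each other in these windows.
*Cd3d*: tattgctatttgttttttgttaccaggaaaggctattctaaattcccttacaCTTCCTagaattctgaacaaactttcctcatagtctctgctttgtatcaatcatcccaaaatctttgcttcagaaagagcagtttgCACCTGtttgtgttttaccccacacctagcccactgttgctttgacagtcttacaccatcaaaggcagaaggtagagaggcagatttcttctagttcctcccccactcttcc
*Cd3g*: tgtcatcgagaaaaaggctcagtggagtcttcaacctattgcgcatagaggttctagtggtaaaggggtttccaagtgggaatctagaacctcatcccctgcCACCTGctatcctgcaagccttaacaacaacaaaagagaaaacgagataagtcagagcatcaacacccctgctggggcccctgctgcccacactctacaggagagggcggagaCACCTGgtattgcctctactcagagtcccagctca
*Cd3e*: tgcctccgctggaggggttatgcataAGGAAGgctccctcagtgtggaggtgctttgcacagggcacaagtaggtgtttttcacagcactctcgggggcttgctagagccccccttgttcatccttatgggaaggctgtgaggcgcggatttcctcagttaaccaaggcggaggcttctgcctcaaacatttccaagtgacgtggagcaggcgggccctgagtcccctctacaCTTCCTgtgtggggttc
The *Cd3d* window held 1 E-box and 1 ETS-type match, the *Cd3g* window 2 E-box matches and no ETS-type match, and the *Cd3e* window 2 ETS-type matches and no E-box. Of 32851 RefSeq windows of the same length, 17.2% held the E-box letters, 29.5% the ETS-type letters and 5.25% both. A match is a description of the letters only.

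Detection of the rule's own genes was fixed by the rule and is given as a description. Of the 67 cells, 31 had UMIs of all 6 marker genes, 28 of 5, 7 of 4 and 1 of 3. *Cd3d* and *Trbc2* were detected in all 67 cells, *Cd3g* in 66, *Cd3e* in 60, *Trac* in 58 and the surface glycoprotein gene *Thy1* in 39. T cell genes outside the rule were found too: *Lck* was detected in 61 cells, *Ms4a4b* in 65 and *Skap1* in 59. The markers of macrophages, dendritic cells, neutrophils and lymph node stroma, 6, 6, 6 and 5 genes, were all at 0 UMIs in the T cells, which at 372846 summed UMIs allows up to 8.05 CPM for each gene. The T cells held a median of 5458 UMIs (2352 to 13541) and 1750 genes (1007 to 3384), against 4205 UMIs in the 151 B cells, 11137 in the 48 macrophages and 7805 in the 447 endothelial cells, which were called from marker lists in the same way.

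The limit of 3 markers was set by the rule, and the barcodes on either side of it are given as a description. Just inside it, the only cell with 3 markers had 12591 UMIs, of which 1 was *Cd3d*, 25 were *Trbc2*, 9 *Trbc1* and 4 *Thy1*, while *Cd3e*, *Cd3g* and *Trac* were at 0. It also held the natural killer genes *Ncr1* (15 UMIs), *Klrd1* (20), *Klrk1* (16) and *Fcer1g* (19), and it was the only member with an *Ncr1* UMI, so this cell carried the label least well. Just outside, 47 WT barcodes had 2 markers. Of these, 37 also had at least 3 stellate and fibroblast markers, and 36 had *Trac* and *Thy1* as their 2 markers. The other 10 had a median of 5675 UMIs and held *Trbc2* (55 UMIs), *Il7r* (53) and *Rora* (23) in all 10 barcodes, with *Cd3d*, *Cd3e*, *Trac*, *Cd247*, *Ncr1* and *Nkg7* at 0. *Cd3g* (10 UMIs) and *Fcer1g* (41 UMIs) were each found in 4 of these 10 barcodes. In the *Npc1*-/- library all 27 barcodes with 2 markers had *Trac* and *Thy1* as the pair and at least 3 stellate and fibroblast markers. Within the quality limits, 1 further WT barcode with 3 T cell markers was left out for its B cell markers and 2 for a hormone at 10% or more, and 1 lay beyond the mitochondrial limit.

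The T cell receptor genes were almost confined to the WT library. Summed over kept barcodes, *Cd3d* had 472 UMIs in WT and 0 in *Npc1*-/-, *Cd3e* 174 and 0, *Cd3g* 455 and 7, *Trbc2* 1073 and 1, and *Trbc1*, which the rule did not use, 421 and 0. The members held 95.3% of the WT *Cd3d* UMIs, 92.0% of *Cd3e*, 91.4% of *Cd3g*, 86.3% of *Trbc2* and 82.7% of *Trbc1*. *Cd8b1* had 76 UMIs in WT and 1 in *Npc1*-/-. The 0 of 4445 *Npc1*-/- barcodes allow a T cell share of up to 0.0675% by the floor of 3 counts and up to 0.0830% by the Clopper-Pearson interval. No *Npc1*-/- barcode with 3 markers was lost to the quality, B cell or hormone limits.

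**Figure D1:**
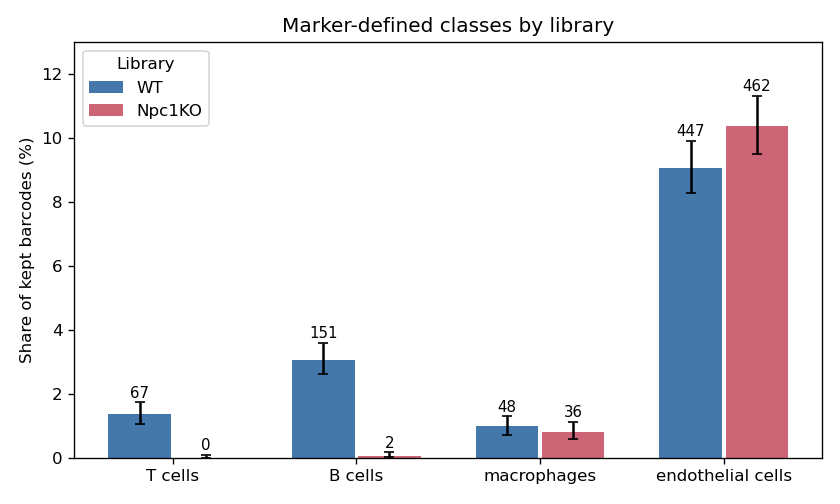
Share of kept barcodes (%, vertical axis) in 4 marker-defined classes of the WT (blue) and *Npc1*-/- (red, labelled Npc1KO) libraries, with the number of cells above each bar and 95% Clopper-Pearson intervals for counting error. T cells (67 and 0) and B cells (151 and 2) stood almost wholly in the WT library, and macrophages (48 and 36) and endothelial cells (447 and 462) in both.

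B cells differed between the libraries in the same direction, while macrophages and endothelial cells had closer shares. B cells numbered 151 in WT (3.07%) and 2 in *Npc1*-/- (0.0450%). Macrophages numbered 48 (0.974%) and 36 (0.810%), a ratio of shares of 0.831, and endothelial cells 447 and 462, a ratio of 1.15. Over all classes together, kept barcodes had a median of 20673 UMIs in the *Npc1*-/- library and 17769.5 in WT. These medians include the endocrine cells and do not give the depth of lymphocytes. What set the lymphocyte contrast was not tested.

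*Trac* and *Thy1* were exceptions. *Trac* had 354 UMIs in WT, of which 76.8% lay in the members, but also 72 UMIs in *Npc1*-/-, in 66 barcodes without a *Cd3d*, *Cd3e* or *Cd3g* UMI, 46 of which had at least 3 stellate and fibroblast markers. In the WT library 70 barcodes outside the members held 82 *Trac* UMIs, 51 of them with at least 3 such markers. Barcodes with these markers held *Trac* at 16.4 CPM in the WT library and at 11.5 CPM in the other, with the 3 CD3 genes at 0 in both. *Thy1*, known also from fibroblasts and neurons, had 732 UMIs in WT and 626 in *Npc1*-/-, and the members held only 12.3% of the former. These counts were looked at after the values of *Trac* had been seen.

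The T cells were compared with B cells and with macrophages of the same library, as the nearest leukocyte classes. For each gene the UMIs of a class were summed and scaled to CPM, and the ratio was taken relative to the median gene, for genes with at least 50 CPM in either class. A gene far under 50 CPM in 1 class passed only through the other, which fixed its direction. Such directions are given as a description. Against B cells 3081 genes were compared, of which 286 (9.28%) were at least 2-fold higher and 386 (12.5%) at least 2-fold lower in T cells. Against macrophages 540 of 3356 genes (16.1%) were higher and 768 (22.9%) lower. Among cells with less than 5% mitochondrial UMIs, the counts against B cells were 501 and 636. With 1 library these are sums over cells that share their source, and a gene at 0 in a class allows up to 3.49 CPM in B cells, 5.39 in macrophages and 0.663 in endothelial cells.

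**Figure D2:**
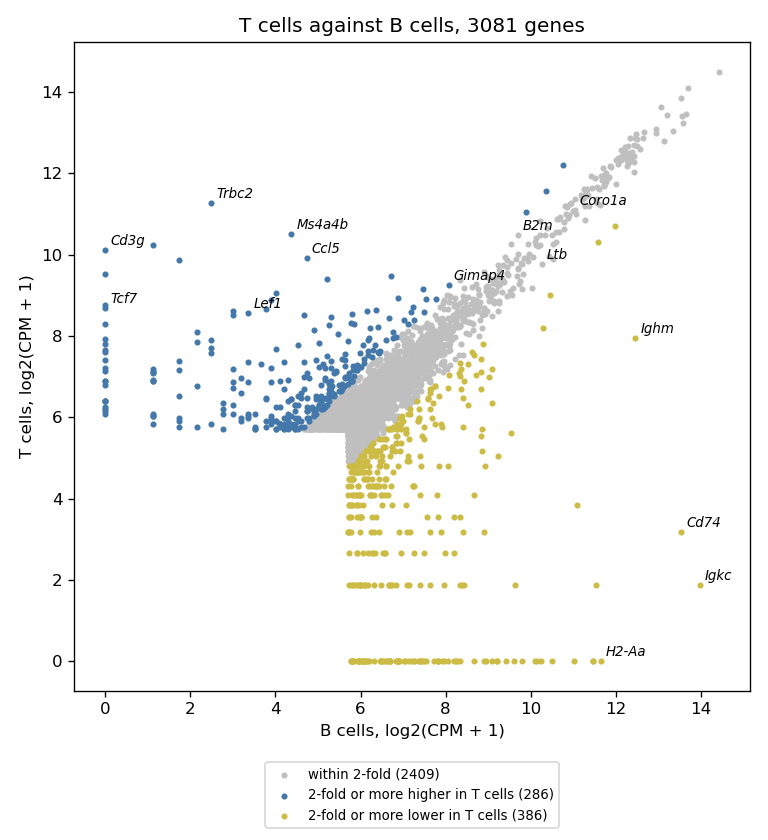
Each point is 1 of the 3081 compared genes, with its level in B cells (horizontal) and T cells (vertical), both as log2(CPM + 1). Blue points (286) were at least 2-fold higher and yellow points (386) at least 2-fold lower in T cells relative to the median gene, with T cell receptor and signalling genes at the upper left and B cell and class II genes at the lower right.

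All 8 genes of the receptor complex were at least 2-fold higher in T cells than in B cells and than in macrophages, with median log2 ratios of 9.07 and 9.75 (7.92 and 7.17 with genes at 0 set to their bound), where the median of all compared genes is 0. All but 3 of them belong to the rule, so the sign of this list was largely fixed by it. Among these 3, *Cd247*, which encodes the ζ chain, had 63 UMIs in 38 T cells (169 CPM) and none in B cells or macrophages, at least 45.3-fold higher than in B cells. *Trat1*, an adaptor of the receptor, had 28 UMIs in 20 T cells (75.1 CPM) and none in B cells, macrophages or endothelial cells.

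The β chain has 2 alternative constant regions, of which a productive chain uses 1. *Trbc2* ranged from 2 to 42 UMIs per cell (median 12), and *Trbc1* from 0 to 32 (median 2). All 43 cells with *Trbc1* also had *Trbc2*, 24 had *Trbc2* alone, 16 had more *Trbc1* than *Trbc2* and 51 the reverse. *Trbc1* made up a median of 17.6% of the UMIs of both genes in a cell and at most 82.6%, and no cell was free of *Trbc2*. The constant regions are close paralogs, so reads may have been split between them or lost, and these shares are uncertain. For the α chain, *Trac* ranged from 0 to 19 UMIs per cell (median 3), with 9 cells at 0.

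The receptor signalling genes followed the receptor. Of 18 genes 17 were compared with B cells, and 16 were at least 2-fold higher and none lower in T cells (median log2 ratio 5.10). The Src kinase gene *Lck* had 528 CPM in T cells against 15.1 in B cells and 0 in macrophages, a fold of 32.7 over B cells. *Skap1*, an adaptor for integrin activation, had 469 against 14.0 CPM (31.5-fold). *Zap70*, the kinase that binds the phosphorylated CD3 chains, had 137 CPM, against 1 UMI in all B cells, and *Lat*, the membrane scaffold that it phosphorylates, had 117 UMIs in 49 T cells and none in B cells, at least 84.2-fold higher. The gene outside the 2-fold limit was *Ptprc*, which encodes CD45 of all leukocytes, with 507 CPM in T cells, 272 in B cells and 264 in macrophages. Against macrophages 15 of 17 were higher and none lower.

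**Figure D3:**
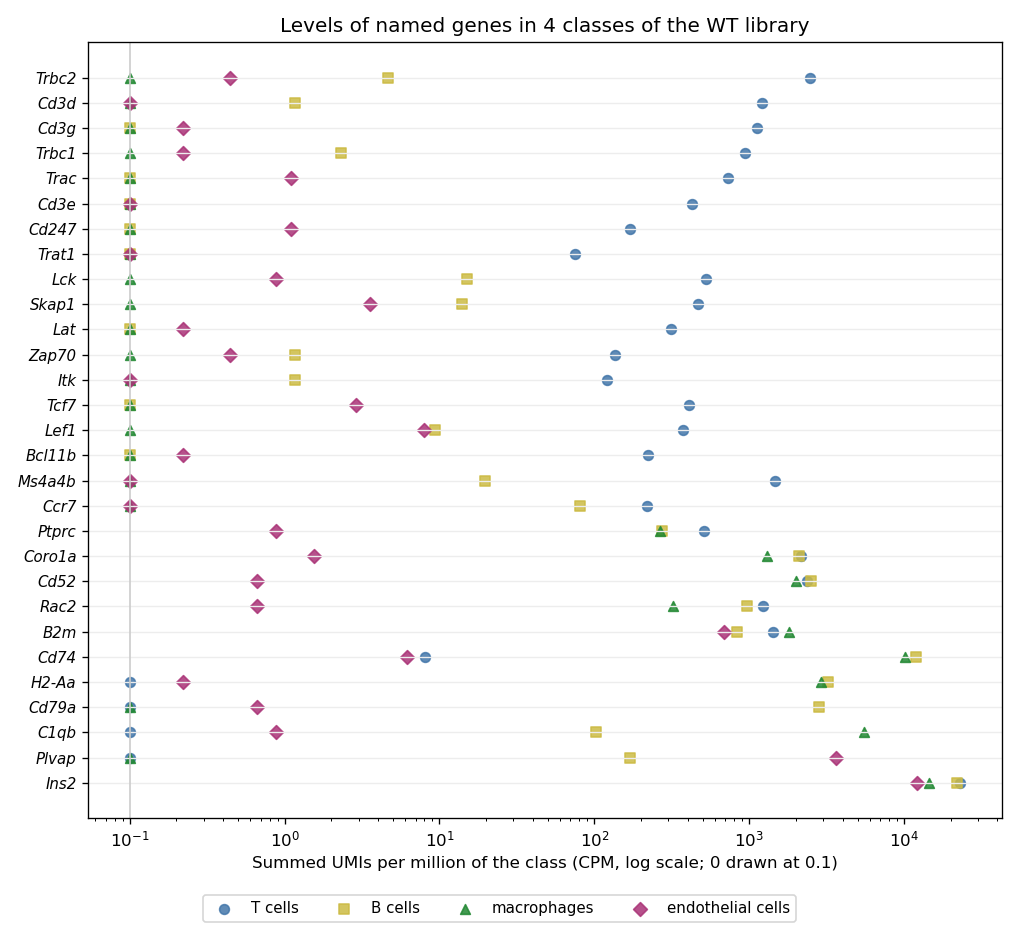
Level of 29 named genes in T cells (circles), B cells (squares), macrophages (triangles) and endothelial cells (diamonds) of the WT library, as CPM of the summed class on a log axis, with 0 drawn at 0.1. The receptor, signalling and transcription factor genes in the upper rows stood far to the right in T cells, *Coro1a* and *Cd52* each lay within 2-fold over the 3 leukocyte classes, and the class II and B cell genes were at or near 0 in T cells.

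Coreceptor transcripts were found in a minority of the T cells. *Cd4* without *Cd8a* or *Cd8b1* was seen in 17 cells (25.4%, 15.5 to 37.5), *Cd8a* or *Cd8b1* without *Cd4* in 11 cells (16.4%, 8.49 to 27.5), both in 2 cells and neither in 37 (55.2%, 42.6 to 67.4). *Cd4* was sparse, with 25 UMIs in 19 cells and at most 3 per cell. The CD8 β chain gene *Cd8b1* had 75 UMIs in 12 cells and up to 19 per cell, and the α chain gene *Cd8a* 31 UMIs in 7 cells, 6 of which also held *Cd8b1*. At a fixed depth of 2000 UMIs per cell, *Cd4* was seen in 14.9% of T cells, against 0.676% of B cells and 2.08% of macrophages, and *Cd8b1* in 14.9% of T cells, with no UMI in B cells, macrophages or endothelial cells at full depth. Among T cells with less than 5% mitochondrial UMIs the CD8 share was 7.32%. An absent coreceptor UMI at this depth does not show that a cell lacked the coreceptor.

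γδ receptor transcripts were rare. *Trdc*, the δ constant gene, had 25 UMIs in 3 cells, 1 of which also held *Trac* and none of which held *Cd4*, *Cd8a* or *Cd8b1*. The cell with 3 markers, which held *Ncr1* and carried the T cell label least well, gave 5 of these UMIs. *Tcrg-C1*, *Tcrg-C2* and *Tcrg-C4*, constant genes of the γ chain and close paralogs, had 8, 7 and 4 UMIs, and 8 cells held at least 1 of them. *Trdv4* and *Sox13* were at 0. *Trdc* was the only gene of this list of 6 that was compared, and it was higher than in B cells and macrophages, which had none.

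Most T cells carried transcripts of recirculating, resting T cells. Of 12 naive and recirculating genes 8 were at least 2-fold higher than in B cells and none lower (median log2 ratio 3.93), and all 12 were higher than in macrophages. The lymph node homing chemokine receptor gene *Ccr7* had 81 UMIs in 37 cells. It was 2.53-fold higher than in B cells (217 against 80.2 CPM) and had no UMI in macrophages.

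Other members of the same list stood further from B cells. *Ms4a4b*, a membrane protein gene of T cells, had 1459 CPM against 19.8 in B cells (69.1-fold) and none in macrophages. *Dapl1* had 392 against 6.98 CPM (52.5-fold), *Igfbp4* 362 against 24.4 CPM (13.9-fold) and *Il7r*, the receptor for the survival cytokine interleukin 7, 142 against 2.33 CPM. *Klf2*, a regulator of T cell trafficking, differed by less than 2-fold from B cells, at 646 and 659 CPM, and so did *S1pr1*, the receptor for exit from lymphoid organs (139 and 87.2 CPM).

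Of 18 T lineage transcription factor genes 14 were compared with B cells, with 6 higher, 1 lower and 7 within 2-fold (median log2 ratio 0.84). *Tcf7*, which encodes TCF1, had 152 UMIs in 53 T cells (408 CPM) and none in B cells, at least 109-fold higher. *Lef1*, its relative, had 375 CPM against 9.30 (37.8-fold). *Bcl11b*, needed for T lineage commitment, had 83 UMIs in 38 cells and none in B cells, at least 59.7-fold higher. *Satb1* (5.21-fold), *Id2* (6.27-fold) and *Ikzf1* (2.32-fold) were the others above the limit, and *Ikzf3*, a factor of mature B cells too, was the one below it (48.3 against 133 CPM). *Id2* was uneven over the T cells. It had 43 UMIs in 6 of the 11 cells with *Ccl5* and no coreceptor UMI, of which 25 came from 1 cell. The cells with *Cd4* alone held 6, those with CD8 transcripts alone 3, and those with neither coreceptor nor *Ccl5* 9. Against macrophages 10 of 13 were higher and 2 lower.

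Thymocyte genes were near 0. *Rag1* and *Rag2*, which cut the receptor genes for rearrangement, *Ptcra* and *Dntt* had no UMI in T cells, and *Arpp21* had 1.

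Of 10 adhesion and leukocyte cytoskeleton genes 4 were at least 2-fold higher than in B cells and none lower (median log2 ratio 0.31), and against macrophages 3 were higher and none lower (0.71). *Coro1a*, an actin regulator of leukocytes, had 2172 CPM in T cells and 2087 in B cells, *Cd52*, a small surface glycoprotein gene, 2371 and 2486, and *Rac2*, a leukocyte GTPase gene, 1234 and 971. The 4 were 3 integrin genes, with *Itgb7* at 233 against 51.2 CPM (4.27-fold), *Itgb2* 5.23-fold and *Itgal* 4.83-fold higher, and the selectin ligand gene *Selplg* (7.75-fold).

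The 8 GIMAP genes, which encode GTPases for lymphocyte survival, were all at least 2-fold higher than in macrophages (median log2 ratio 7.27), and 3 of 8 were higher than in B cells (0.62). *Gimap4* had 609 CPM in T cells, 267 in B cells, 355 in endothelial cells and 0 in macrophages. *Gimap3* had 274 CPM in T cells and 108 in B cells, and *Gimap9* 177 and 76.7 CPM. In endothelial cells *Gimap6* had 590 CPM, above the 418 CPM of the T cells, so that these genes did not set T cells apart from every other class.

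Class I and class II antigen presentation differed in T cells. All 6 class II genes were at least 2-fold lower than in B cells (median log2 ratio -10.02, or -8.64 at the bound). The invariant chain gene *Cd74* had 3 UMIs in all T cells (8.05 CPM) against 11894 CPM in B cells and 10107 in macrophages, and *H2-Aa*, *H2-Eb1* and *Ciita*, the class II transactivator, were at 0. Of 10 class I genes 9 were compared, and 2 were at least 2-fold higher than in B cells and none lower (median log2 ratio 0.52). These were *H2-K1* (2130 against 953 CPM, 2.09-fold) and *H2-Q7* (292 against 73.3 CPM, 3.73-fold), a member of a family of near-identical genes whose reads may be split. *B2m*, the shared light chain, had 1421 CPM in T cells, 829 in B cells and 1810 in macrophages.

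Of the 10 genes with the highest log2 ratio over B cells, *Cd3g*, *Trac*, *Cd3e*, *Cd3d*, *Trbc2* and *Thy1* belong to the rule, and *Tcf7*, *Lat*, *Bcl11b* and *Cd8b1* do not. The 10 lowest were B cell and class II genes (*Igkc*, *H2-Aa*, *Cd79a*, *H2-Eb1*, *Ly6d*, *Cd74*, *Iglc2*, *Iglc1*, *Ms4a1* and *H2-Ab1*). Over macrophages the highest outside the rule were *Ms4a4b*, *Ptprcap*, *Trbc1*, *Gimap4*, *Lck* and *Sept1*, and the lowest were *Apoe*, *C1qb*, *C1qa*, *C1qc*, *H2-Aa*, *H2-Eb1*, *Lyz2*, *Cd74*, *Aif1* and *Ms4a7*. *Apoe*, which carries cholesterol and other lipids, had 1 UMI in T cells and 9892 in macrophages. The B cell class also held the macrophage list at 503 CPM and the endothelial list at 499 CPM, and the part of these transcripts in the ratios was not tested.

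Most of the interferon response and stress genes compared with B cells lay within 2-fold. Of 11 interferon response genes 6 were compared, with 2 at least 2-fold higher, *Rtp4* (61.7 against 2.33 CPM) and *Zbp1* (56.3 against 16.3 CPM), and none lower. None of 13 compared immediate early and heat shock genes passed the limit against B cells, and 7 were lower than in macrophages. This list, known to respond to tissue dissociation, summed to 2795 CPM in T cells, 2817 in B cells, 5291 in macrophages and 7004 in endothelial cells. Of the 3 Bcl2 family genes compared with B cells, *Bcl2*, which protects lymphocytes from apoptosis, was 2.16-fold higher (247 against 107 CPM) and *Mcl1* 2.24-fold lower (223 against 466 CPM).

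Effector transcripts were concentrated in a minority of the T cells. The chemokine gene *Ccl5* had 361 UMIs in 12 cells (17.9%, 9.61 to 29.2), 10 of which held at least 10, and the granule protein gene *Nkg7* had 136 UMIs in 18 cells. A division of the cells by *Ccl5* was made after these values had been seen, and it is used as a description. Of the 12 cells with *Ccl5*, none held *Cd4* or *Cd8b1*, 1 held *Cd8a*, and 11 held *Nkg7*. The natural killer receptor gene *Klrd1* was found in 10 of them, *Il2rb*, a receptor chain for interleukin 2 and 15, in 11, the Fc receptor γ chain gene *Fcer1g* in 9 and *Ikzf2* in 10.

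Naive T cell genes ran the other way. *Ccr7* was found in 1 of the 12 cells with *Ccl5* and in 36 of the 55 without, and *Lef1* in 7 of 12 and 45 of 55. *Igfbp4* had no UMI in the cells with *Ccl5* and was found in 35 T cells in all. Summed over the 11 cells with *Ccl5* and no coreceptor UMI, *Nkg7* stood at 1489 CPM, against 505 CPM in the 11 cells with CD8 transcripts, 59.9 CPM in the 17 with *Cd4* and 0 in the 26 with neither coreceptor nor *Ccl5*. *Fcer1g* had 62 of its 64 UMIs in these 11 cells, *Xcl1* all of its UMIs (22), and *Tbx21*, the gene of the transcription factor T-bet, 11 of 12. The cell with 3 markers, which held *Ncr1*, is one of these 11, and it gave 11 of the 22 *Xcl1*, 19 of the 62 *Fcer1g*, 26 of the 100 *Nkg7* and 20 of the 54 *Klrd1* UMIs.

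**Figure D4:**
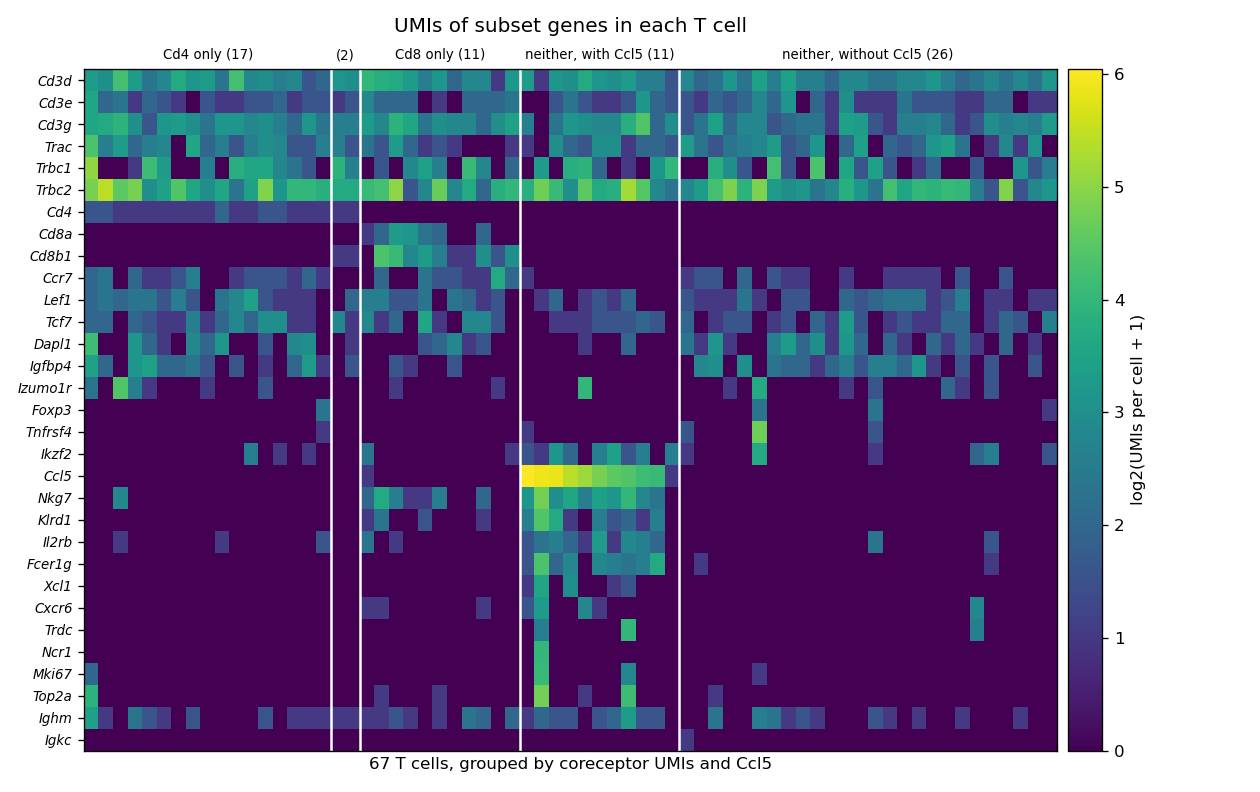
UMIs of 31 genes (rows) in each of the 67 T cells (columns), coloured by log2(UMIs per cell + 1), with cells grouped by coreceptor UMIs and *Ccl5* (the narrow group of 2 held both coreceptors). The CD3 genes and *Trbc2*, which belong to the rule, filled nearly every column, and *Trbc1* was at 0 in 24 columns. *Ccl5*, *Nkg7*, *Klrd1*, *Il2rb* and *Fcer1g* were concentrated in the group of 11 cells chosen for *Ccl5*, where *Igfbp4* and *Foxp3* were at 0.

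Of 10 cytotoxic effector genes only *Nkg7* and *Ctsw*, a lysosomal protease gene of killer cells, were compared, and both were at least 2-fold higher than in B cells (log2 ratios 5.50, 4.45 to 7.08, and 5.72, 4.34 to 8.24, with 6 and 3 UMIs in B cells). The low-value filter fixed this direction, since all 10 genes summed to only 12.8 CPM in B cells. The other genes of the list were near 0 in T cells. *Gzmb*, *Gzmk* and *Klrg1* had no UMI, *Gzma* had 4 UMIs in 1 cell, *Prf1*, the perforin gene, 6 and *Ifng* 2. Of 8 compared memory and tissue-resident genes 5 were higher than in B cells, led by *Ccl5* (35.4-fold), *Cxcr6* (27 UMIs against none) and *Il2rb* (19.4-fold), and 2 were lower, *Cd44* (18.8 against 73.3 CPM) and *S100a6* (56.3 against 213 CPM). Most *Cxcr6* UMIs came from few cells, with 9 in the cell with 3 markers, which held *Ncr1*, and 6 in each of 2 others. *Cd44*, a marker of antigen-experienced cells, had 7 UMIs in 6 T cells, and the early activation gene *Cd69* had 22 in 14.

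All 9 natural killer marker genes had at least 1 UMI in the T cells and summed to 612 CPM, led by *Fcer1g* (64 UMIs in 11 cells) and *Klrd1* (62 in 13). *Klrb1c*, which encodes NK1.1 in this strain, had 10 UMIs in 4 cells, and *Zbtb16*, the gene of the innate-like T cell factor PLZF, 3 UMIs in 2 cells. *Ncr1* was at 0 in every cell but the one with 3 markers. Macrophages held 5762 CPM of the same list through *Tyrobp* and *Fcer1g*, which myeloid cells share.

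Of the regulatory T cell genes, *Foxp3*, the defining factor, had 13 UMIs in 4 cells (5.97%, 1.65 to 14.6), of which 3 held *Ikzf2*, 3 *Tnfrsf4*, 2 *Il2ra* and 1 *Cd4*. More T cells had a UMI of *Ikzf2* (20 of 67), *Tnfrsf18* (19) or *Izumo1r* (16), which had UMIs in 4, 6 and 0 of 151 B cells. The 4 compared genes of this list of 8 were all at least 2-fold higher than in B cells (median log2 ratio 6.15). The low-value filter fixed this direction, since all 8 genes summed to only 12.8 CPM in B cells. In addition, 1 cell with *Foxp3* gave a part of the UMIs of each of the 4 genes, the largest part for *Tnfrsf4*. Of *Tnfrsf4*, which encodes the costimulatory receptor OX40, 28 of 31 UMIs lay in the 4 cells with *Foxp3*, but 25 of these came from that cell. *Ikzf2*, which encodes Helios, had 15 of its 77 UMIs there, *Izumo1r*, which encodes folate receptor 4, had 14 of 72, and *Tnfrsf18*, which encodes the receptor GITR, had 12 of 39, and the same cell gave 12, 12 and 8 of these UMIs. More *Ikzf2* UMIs (45) lay in 10 cells with *Ccl5*, none of which held *Foxp3*. *Izumo1r* had 20 and 15 UMIs in 2 single cells without *Foxp3*.

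Type 17 and type 2 transcripts were not detected at this depth. *Il17a*, *Il17f*, *Il23r*, *Ccr6*, *Il4*, *Il5*, *Il13*, *Areg* and *Il1rl1* were at 0, and *Il18r1* had 14 UMIs in 7 cells and *Rora* 6 in 3. The 2 compared genes of the innate-like and type 17 list, *Blk* and *Ccr6*, were lower than in B cells, which express both. Of 7 inhibitory and follicular helper genes *Icos* had 16 UMIs in 11 cells and *Pdcd1* 4, and *Cxcr5*, the follicle homing receptor gene, was lower than in B cells (1 UMI against 79.1 CPM). Among cytokines *Ltb*, which encodes lymphotoxin β, was the main transcript, with 869 CPM in T cells and 1227 in B cells, and *Tgfb1* was 2.69-fold lower than in B cells. Of 4 compared chemokine receptor genes *Ccr7* and *Cxcr6* were higher and *Ccr6* and *Cxcr5* lower than in B cells. For *Cxcr6*, *Ccr6* and *Cxcr5* the filter fixed the direction.

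The 17 cells with *Cd4* alone and the 11 with CD8 transcripts alone held 100194 and 59408 UMIs. Of 573 genes with at least 30 UMIs over both, 22 (3.84%) were at least 2-fold higher and 8 (1.4%) at least 2-fold lower in the cells with *Cd4*, the 8 including the coreceptor genes *Cd8a* and *Cd8b1* that defined the groups. The genes named from each end were *Stmn1*, *Izumo1r*, *Igfbp4*, *Hmgb2* and *Celf2* on the *Cd4* side and *Nkg7*, *Id3*, *Epsti1*, *Klk8* and *Nktr* on the CD8 side.

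*Igfbp4*, which encodes a binding protein of insulin-like growth factors, had 59 UMIs in 13 of 17 cells with *Cd4* and 5 in 3 of 11 cells with CD8, a log2 ratio of 2.69 (1.51 to 4.49). *Celf2*, an RNA-binding protein gene, had 34 and 5 UMIs, a log2 ratio of 1.90 (0.66 to 3.73). *Nkg7* ran the other way, with 6 UMIs in 1 cell with *Cd4* and 30 in 7 cells with CD8, a log2 ratio of -2.98 (-4.62 to -1.78).

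Single cells weighed on several of these differences. One dividing cell held 60 of the 72 *Stmn1* UMIs and 58 of the 86 *Hmgb2* UMIs of the *Cd4* side. Without it *Stmn1* stood at 138 CPM against 1 UMI on the CD8 side, and *Hmgb2* at 323 against 185 CPM, which is 1.75-fold and below the limit. On the CD8 side 1 cell held 11 of the 21 *Id3* UMIs, and without it *Id3* was 1.74-fold higher there, also below the limit. Leaving out the cell with the most UMIs brought *Klk8* and *Nktr* to 1.94-fold as well, whereas *Epsti1* (2.74-fold) and *Nkg7* (5.83-fold) stayed past the limit on the CD8 side, as did *Igfbp4* (6.72-fold) and *Celf2* (3.57-fold) on the *Cd4* side. *Izumo1r* then had 13 UMIs against 2. These ratios of CPM without 1 cell were added after the data were seen.

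**Figure D5:**
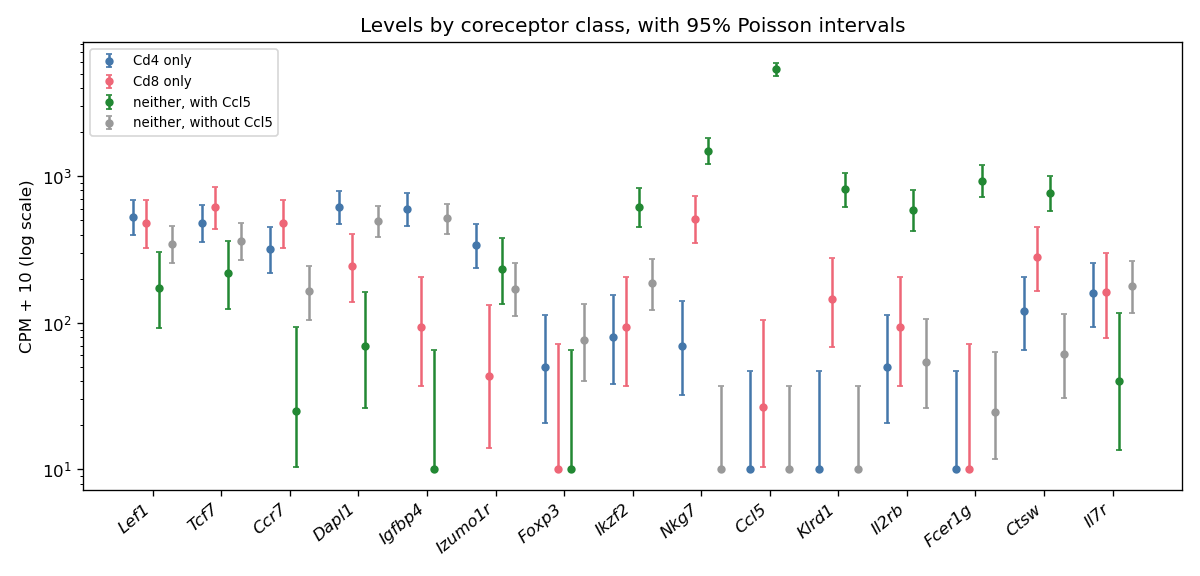
Level of 15 genes as CPM + 10 on a log axis in T cells with *Cd4* only (17 cells), CD8 transcripts only (11), neither coreceptor with *Ccl5* (11) and neither without *Ccl5* (26), with 95% Poisson intervals for counting error. *Nkg7*, *Klrd1*, *Il2rb*, *Fcer1g* and *Ctsw* were highest in the group chosen for *Ccl5*, *Igfbp4* and *Dapl1* in the cells with *Cd4* and those with neither transcript, and *Foxp3* intervals overlapped wherever it was detected.

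Transcripts of mitotic genes were concentrated in 3 cells. *Mki67* was found in 4 T cells, and the 3 cells with at least 10 UMIs of *Top2a*, the topoisomerase gene of dividing cells, held 96.2% of the *Mki67*, 97.6% of the *Ube2c* and 95.1% of the *Birc5* UMIs. *Top2a* itself chose these cells. They held less of *Hmgb2* (75.6%) and *Tyms* (76.9%), and the sparse replication genes *Pcna* (30%), *Hells* (33.3%) and *Mcm6* (12.5%) lay mostly in the other T cells. Their depths of 13541, 12591 and 10278 UMIs were far above the median of 5458. One was a cell with *Cd4* and one the cell with 3 markers, which held *Trdc* (5 UMIs) with *Ccl5* (58 UMIs). The other held *Trdc* (15 UMIs) with *Ccl5* (20 UMIs). As a list, none of the 7 compared cell cycle genes was 2-fold apart from B cells, and 4 of 10 were lower than in macrophages.

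Ribosomal protein transcripts made up 31.1% of the summed T cell UMIs, against 26.9% in B cells, 20.4% in macrophages, 12.3% in endothelial cells and 3.88% in cells with insulin at 10% of UMIs or more. Leaving out mitochondrial and hormone genes and symbols that begin with Rps or Rpl, the 15 genes with the most T cell UMIs were *Gm42418*, *Tmsb4x*, *Tpt1*, *Actb*, *Malat1*, *Eef1a1*, *Fau*, *Rack1*, *Tmsb10*, *Ppia*, *Trbc2*, *Ubb*, *Pfn1*, *Cd52* and *Actg1*. *Fau*, which encodes ribosomal protein S30 in a fusion, is also ribosomal but has another kind of symbol. *Gm42418* overlaps a ribosomal RNA repeat, so its 17404 CPM is uncertain as a gene level. *Tmsb10*, an actin-sequestering peptide gene, had 3025 CPM in T cells, 1307 in B cells and 318 in macrophages, whereas its relative *Tmsb4x* had 14792, 11786 and 29611 CPM.

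The gene whose loss the study examined was barely seen in T cells. *Npc1* had 2 UMIs in 2 of the 67 T cells (5.36 CPM, 0.650 to 19.4) and 17 UMIs in 14 of the B cells (19.8 CPM, 11.5 to 31.6), and these counting intervals overlapped. *Npc2*, the soluble partner that hands cholesterol to NPC1, had 180 UMIs in 60 cells, 483 CPM against 217 CPM in B cells (2.08-fold), 917 in macrophages and 194 in endothelial cells. The lysosomal lipase gene *Lipa* (16 UMIs) and the cholesterol esterification gene *Soat1* (7 UMIs) were too sparse to be compared with B cells, and all 3 genes that could be compared with macrophages were lower in T cells. Of these, only *Npc2* passed the low-value filter through its T cell level, so the filter fixed the direction of the others.

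Hormone transcripts were present in the T cells at a low share. *Ins1* and *Ins2* together made up 3.13% of summed UMIs, with a median of 3.14% per cell against 4.03% in B cells, and *Ins2* was 2.82 times *Ins1* in both classes. Endocrine marker genes summed to 40548 CPM in T cells, 35318 in B cells and 32486 in macrophages, and 581160 in the insulin-rich cells. In 2 T cells *Gcg* took 8.63% and 9.43% of UMIs, just under the limit of the rule, and in the other 65 at most 0.425%, so that these 2 cells held 1221 of 1753 *Gcg* UMIs. Without these 2 cells *Gcg* stood at 1481 CPM. They also held 129 UMIs of the endocrine marker gene *Ttr*, against 54 in the other 65 T cells. Whether these 2 barcodes each hold a T cell alone was not tested.

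Of the other cell types, 3 of 6 endothelial genes had UMIs in T cells, and *Pecam1*, which leukocytes share, gave 27 of their 29, while *Cdh5*, *Flt1* and *Plvap* were at 0. Stellate and fibroblast markers had 3 UMIs, mast cell markers 3, Schwann cell markers 2, duct cell markers 4 and acinar markers 31, with *Ctrb1* at 19. *Ighm*, the μ heavy chain gene of B cells, had 92 UMIs in 40 of 67 T cells, but *Igkc*, the κ light chain gene, had 1. In B cells the ratio of *Ighm* to *Igkc* was 0.350 (4821 and 13777 UMIs) and in the insulin-rich cells 0.364 (115 and 316 UMIs), whereas macrophages, as the T cells, held *Ighm* (125 UMIs in 37 of 48 cells) without *Igkc* (0 UMIs). Both genes are among the 5 B cell markers that limited the choice of the T cells, so nothing is read from their ratio there. This pair of genes was chosen after its values had been seen, and the source of the *Ighm* counts was not tested.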

How the data were processed

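For 31053 genes the authors deposited unnormalized UMI counts of every barcode, 8569 WT and 7646 *Npc1*-/- barcodes (114324626 and 127122035 UMIs). The submitters' processing notes name Cell Ranger 3.1.0, Seurat 4.0.3 and mm10. The labels give version 3 reagents and the paper version 2, which was left unresolved. The study's cell filters had not been applied to these counts.

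Cells were chosen and summed with numpy 2.4.6, pandas 2.3.3 and scipy 1.17.1 in Python 3.11.15. The members and gene lists were chosen with earlier results of these data known. B cells and endothelial cells were called by at least 3 of 5 and 3 of 6 markers and macrophages by at least 3 of 6. No doublet caller was run, and a stricter alternative removed T cells with 2 markers of another class or over 2 times the median UMIs. Log2 ratios had 0.5 counts added and were centred on the median gene, which shifted them by 0.10 (B cells), 0.09 (macrophages) and -0.01 (cells with *Cd4* against CD8). Intervals were Clopper-Pearson for shares, Poisson for levels and conditional binomial for ratios (95%). The floor for a count of 0 was 3 counts over the class. For fixed-depth shares each cell was thinned to 2000 UMIs (seed 42), which left out no T cell or macrophage, 3 B cells and 3 endothelial cells. No test was made, since each genotype has 1 library and cells are not replicates. The procedure was tested on simulated data. Alternatives changed the cell limits, marker minimum, fold, low-value filter, pseudocount, weighting of cells and centring (none, or the TMM factor of edgeR 4.0.16).

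Besides the listed genes, the text names the 10 highest and lowest ratios against each class (at least 100 CPM and a UMI in 10% of cells of the higher class), the 15 most abundant genes, the 5 highest and lowest between coreceptor groups, and *Npc1*. Symbols and Ensembl identifiers are those of the files, and positions were matched by identifier to GENCODE. The libraries shared 12 barcode sequences, none of a T cell. Some genes of the lists are not reported here.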

Additional observations from a re-analysis of the deposited data

How the results depend on the processing

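Of 99 values recomputed under alternatives, 74 stayed within the counting interval of a share or ratio or within 1.5 times a count and 25 moved. T cells in *Npc1*-/- stayed at 0 except with at least 2 markers, which gave 0.607% there (27 barcodes, all with at least 3 stellate and fibroblast markers) and 2.31% in WT (37 of the 47 added barcodes with such markers), lowered the share with *Cd4* to 14.9% and gave 534 genes higher than in B cells. Under 5% mitochondrial UMIs, 501 genes were higher and 636 lower than in B cells, and the CD8 share was 7.32%. At 4-fold, 122 genes were higher and 216 lower than in B cells, 225 and 461 against macrophages, and 7 differed between coreceptor groups (30 at 2-fold). At 100 CPM the counts were 153, 188, 254 and 398, and with no filter 2453, 2579, 2971 and 3841, in the same order. Between coreceptor groups 151 genes passed with at least 15 UMIs and 9 with at least 60. Thinning to 1000 and 1500 UMIs gave *Cd4* shares of 8.96% and 10.4%. For the fold, low-value and depth settings the change follows from how they are built, and for the mitochondrial setting the cause was not tested. Leaving out the 2 cells rich in *Gcg*, added after the data were seen, moved no value. Leaving out the cell with most UMIs of a gene, also added then, moved *Hmgb2* between coreceptor groups out of its interval. With 67 cells and 372846 UMIs, sparse genes such as *Cd4* are often missed. No paired analysis was possible because there is 1 library per genotype.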
